A study of Rattus norvegicus with 6 samples.

Results

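The cytoskeleton of a liver cell is built from actin filaments, microtubules and keratin filaments, and the mRNAs described here encode their subunits. They are the cytoplasmic actins Actb and Actg1, the simple-epithelial keratins Krt8 and Krt18, the alpha tubulins Tuba1a, Tuba1b and Tuba4a, and the beta tubulins Tubb2a, Tubb4b and Tubb5. Each was taken by its gene symbol in a table of 33022 loci measured in 6 libraries, using the locus with the highest mean where a symbol was repeated. This found 9 of the 10 named genes, none of them on more than 1 locus. Actg1 was listed only in 1 merged locus that joined its symbol to that of an unnamed gene, so its values are given apart from those of the other 9.

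The libraries came from livers of male obesity-prone Sprague Dawley rats, whose starting weight was 160 to 190 g and whose age was not given in the sources used here. For 2 weeks they ate either TD 88137, a Western diet (WD) rich in milk fat, sucrose and cholesterol, or TD 08485, its control (CD), and were fasted overnight and refed briefly before the left lobe was taken. For each diet, total RNA was sequenced beside RNA from a light fraction of a sucrose gradient, holding mRNAs with 3 or fewer ribosomes, and from a heavy fraction, holding those with 4 or more. Each of the 6 combinations of diet and fraction was 1 library pooled from 3 rats, so there were no replicates and no test of a difference between diets was possible.

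Actin monomers polymerise into filaments that lie under the hepatocyte membrane and around the bile canaliculus. Alpha and beta tubulin pair as dimers, which assemble into the microtubules along which hepatocytes move secretory vesicles and lipid droplets, and free tubulin dimers trigger the decay of tubulin mRNAs that are being translated. Keratin 8 and keratin 18 also pair with each other and form the main intermediate filaments of the hepatocyte, and hepatocytes carrying damaged keratins gather them in Mallory-Denk bodies. Actin genes are classic targets of serum response factor, which binds a DNA motif called the CArG box.

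Of the 10 genes, 9 had a promoter in the RefSeq table for the rat assembly GRCr8, covering 250 bases before to 50 bases after the gene start, and Actb had no entry there. The CArG box, searched on both strands as CC, 6 letters that are each A or T, then GG, was in 1 of these 9 promoters, that of Actg1. The Actg1 box began 90 bases before the start, and is shown because Actg1 was the only one of the 9 genes to hold it. The 30 bases around it lie at chr10:106121022-106121051 on the minus strand of GRCr8, and the capitals mark the box.
Actg1: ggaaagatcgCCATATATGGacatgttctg
Across the table, 548 of 33469 promoters (1.64%) held such a box. The letters TATAAA in the 50 bases before the start were found for Tubb2a and Tubb4b, and for 757 of the 33469 promoters (2.26%). These matches describe the letters in the window and say nothing of binding.

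Levels are given as FPKM, the fragments of a locus divided by its length and by a scale of the library, so that they can be compared between genes. How the libraries were scaled to each other is not given in the sources used here. Medians of all loci near 0 are therefore not read as a measurement. Depth here means fragments per unit of FPKM at a locus, so it includes any scaling between libraries and is not a count of all fragments sequenced. Relative to the CD heavy library, the depth recovered from the smallest steps in the values was 1.57 for CD total RNA, 1.5 for WD total RNA, 1.07 for the CD light fraction, 2.34 for the WD light fraction and 1.02 for the WD heavy fraction. The same steps gave the number of fragments behind 5 of the 9 mRNAs, namely Krt18, Tuba1a, Tuba1b, Tuba4a and Tubb4b, and so a 95% interval for their ratios (exact binomial, or exact conditional for a ratio of ratios). These intervals cover counting error only and compare libraries, not diets. The bounds deposited beside the FPKM values were wide. They overlapped between CD and WD for 9 of 9 mRNAs in each fraction, and between heavy and light for 9 of 9 in each diet.

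The 9 mRNAs spanned a wide range of levels. Actb had the highest mean over the 6 libraries at 866 FPKM, and Krt8 at 89.9 and Krt18 at 71.1 followed. Tubb4b was the most abundant tubulin mRNA at 43.5 FPKM, ahead of Tuba4a at 16.4 and Tubb5 at 14 FPKM. Tuba1b at 7.66, Tuba1a at 3.27 and Tubb2a at 3.03 FPKM were the lowest. When the mRNAs were ordered by level within each library, the deposited bounds of all 8 neighbouring pairs overlapped. Any such order is a description of the point estimates.

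**Figure D1:**
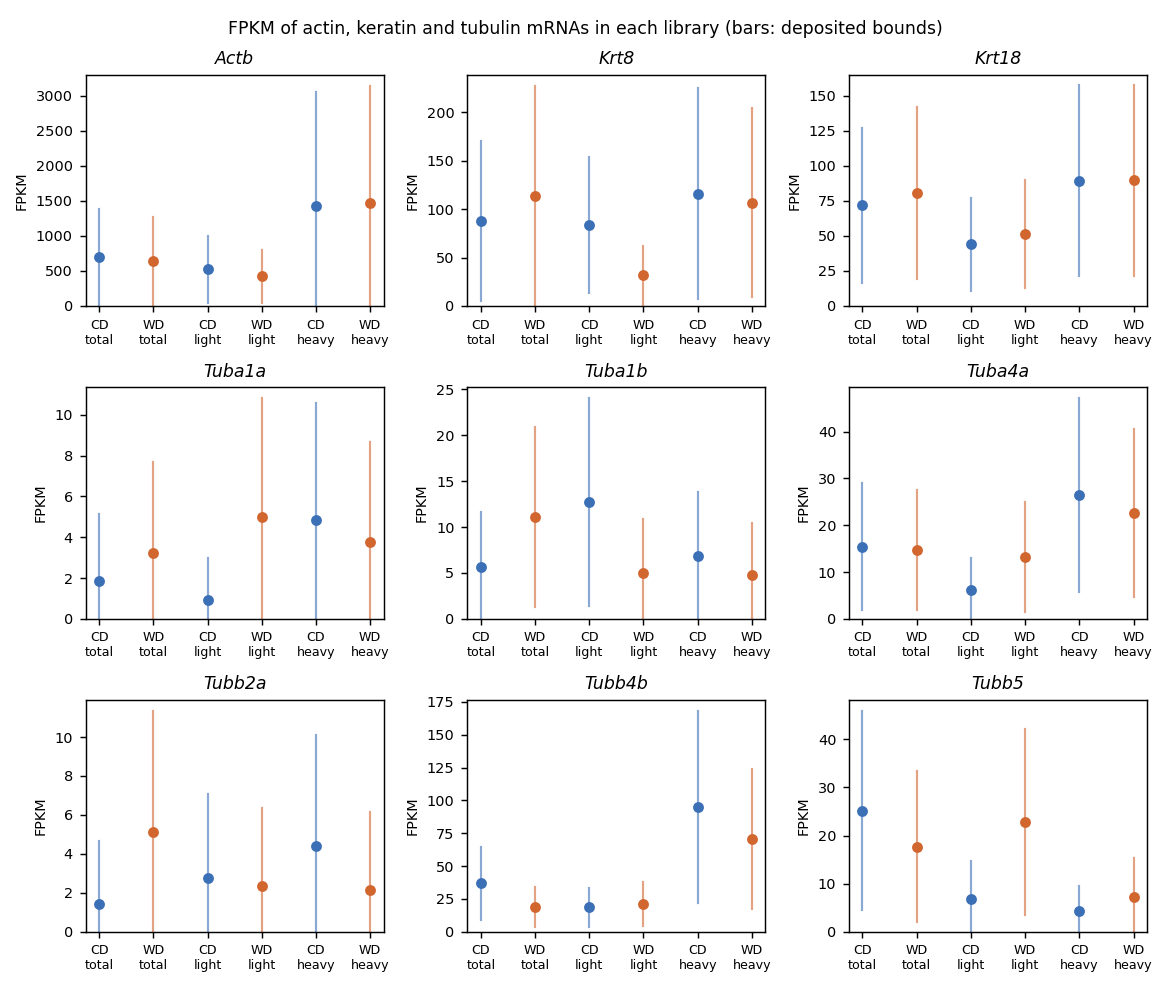
FPKM (linear vertical axes starting at 0, with a scale of its own for each gene) in the 6 libraries, blue for the control diet and orange for the Western diet. Points are the deposited values of 1 library each and bars are the bounds deposited with them, which overlapped between diets for all 9 mRNAs; Actb reached 1432 and 1473 FPKM in the heavy fractions and Tuba1a stayed under 5 FPKM in each library.

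Actb, at 12:13715842-13718841 in Rnor_6.0, encodes beta-actin. In total RNA it measured 698 FPKM in CD and 641 FPKM in WD, in the light fraction 522 and 426, and in the heavy fraction 1432 and 1473. The heavy libraries were thus the highest and the light libraries the lowest, and this held in both diets. Its rank among the 10201 loci compared, meaning those with a symbol, an accepted status and 1 FPKM or more on average, was 56 in each heavy library and 114 and 151 in the CD and WD light libraries. The ratio of heavy to light, called the ribosome density after the study's definition, was 2.74 in CD and 3.46 in WD. FPKM does not keep the amount of RNA in each fraction. This ratio therefore describes a locus relative to the other loci in each library and not the share of its molecules on many ribosomes.

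No ratio between diets passed 1.5-fold for Actb as deposited. Its ratio of WD to CD was 0.919 in total RNA, 0.815 in the light fraction and 1.03 in the heavy fraction, and its ribosome density was 1.26 times as high in WD. With all libraries set to a common FPKM sum, however, its log2 change was -0.65 in the light fraction and 0.66 in density, both past 1.5-fold. Actb is a usual reference gene for qRT-PCR, and was set beside 15 other genes used in that way. Among the 16, it had the third smallest difference between diets in total RNA and the second smallest in ribosome density. Across all 6 libraries its highest value was 3.46 times its lowest, which was the seventh smallest such span. Sdha, a subunit of succinate dehydrogenase, had the smallest difference in total RNA. Hprt1, a purine salvage enzyme, had the largest, but on 1 fragment in CD and 4 in WD, with an interval of 0.414 to 206 for its ratio.

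The merged locus that carried Actg1, which encodes gamma-actin, lay at 10:109519133-109520846. In total RNA it measured 41.5 FPKM in CD and 19.7 in WD, from 44 and 20 fragments, which gave a ratio of 0.477 (95% interval 0.265 to 0.823). In the light fraction it measured 26.2 FPKM in CD and 31.1 in WD, and in the heavy fraction 23.7 and 34.7. The lower value in WD was therefore seen in total RNA and in neither fraction. Its heavy over light ratio was 0.905 in CD and 1.12 in WD, against the values above 2 for Actb. Actb exceeded the merged locus by 13.7 to 60.4 times, lowest in the WD light and highest in the CD heavy library. How the authors assigned fragments shared by Actb, Actg1 and their near-identical copies is not given in the sources used here, so the split between these loci is uncertain, and the fragment numbers of the merged locus did not account for its deposited bounds.

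Krt8, the type II keratin of simple epithelia, lies at 7:143596510-143603803. It measured 88.0 FPKM in CD and 113 FPKM in WD total RNA, 83.9 and 31.7 in the light fraction, and 116 and 107 in the heavy fraction. The WD light library stood well below the other 5. The ratio of WD to CD was 1.29 in total RNA, 0.378 in the light fraction and 0.922 in the heavy fraction. The Krt8 density accordingly went from 1.38 in CD to 3.37 in WD, a ratio of 2.44. Taken as heavy over total RNA, which leaves the light libraries out, the values were 1.32 in CD and 0.942 in WD, the opposite order. Krt8 is also in the study's own list of genes related to steatosis, which was chosen on ribosome density in these libraries, so its density is not independent evidence of a direction. No fragment number could be recovered for Krt8, and its ratios have no interval.

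Krt18, the type I partner of keratin 8, lies close by at 7:143629454-143633131. It measured 71.9 FPKM in CD and 80.6 FPKM in WD total RNA, 43.8 and 51.4 in the light fraction, and 89.4 and 89.6 in the heavy fraction. These rested on 40 to 103 fragments per library. The ratio of WD to CD was 1.12 (0.841 to 1.5) in total RNA, 1.17 (0.806 to 1.74) in the light fraction and 1.00 (0.721 to 1.39) in the heavy fraction. Each interval held 1, and a difference of the size seen for Krt8 in the light fraction lay outside that of Krt18. Its ribosome density was 2.04 (1.37 to 3.07) in CD and 1.74 (1.28 to 2.36) in WD, both above 1, and the change between diets was 0.855 (0.511 to 1.42).

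Krt8 was the higher of the keratin partners in 5 of the 6 libraries. Krt8 over Krt18 was 1.22 in CD total RNA, 1.41 in WD total RNA, 1.91 in the CD light, 1.29 in the CD heavy and 1.19 in the WD heavy library. In the WD light library it was 0.616, the only library where Krt18 was the higher. That library also stood apart in other ways, being the deepest, with the highest FPKM sum over loci with a symbol (867734, against 617369 to 700724 in the other 5) and the highest globin mRNA. Hbb measured 242 FPKM there and 0 to 13.9 elsewhere, and Hba1 163 FPKM against 0 to 18. The part of these features in the light-fraction values was not tested.

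**Figure D2:**
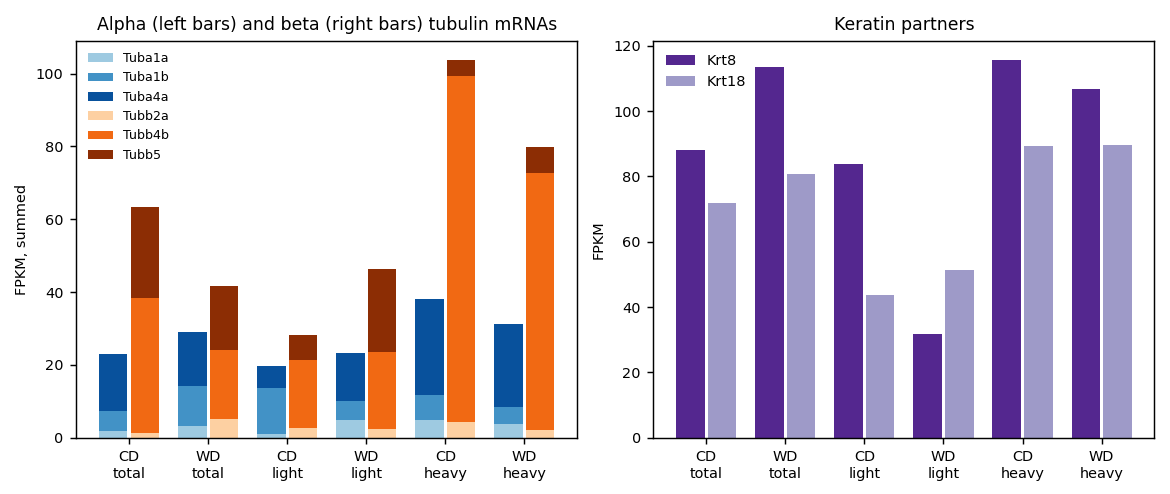
FPKM of the mRNAs of partner subunits in each library (linear vertical axes from 0). On the left, stacked bars sum the 3 alpha tubulin mRNAs (blue shades, left bar of each pair) and the 3 beta tubulin mRNAs (orange shades, right bar), with beta above alpha in all 6 libraries; on the right, Krt8 and Krt18 are drawn side by side, with Krt8 lower only in the WD light library.

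Among the alpha tubulins, Tuba4a, at 9:82415604-82419288, was the highest in 5 of the 6 libraries. It measured 15.4 FPKM in CD and 14.7 FPKM in WD total RNA, 6.16 and 13.2 in the light fraction, and 26.4 and 22.6 in the heavy fraction. The number of fragments ranged from 6 in the CD light to 28 in the WD light library. Its density was 4.24 (1.71 to 12.8) in CD and 1.71 (0.923 to 3.12) in WD, so only the former interval lay above 1. The density in WD was 0.402 times that in CD, with an interval of 0.115 to 1.26 that held 1. The ratio of WD to CD was 0.951 (0.492 to 1.83) in total RNA and 2.13 (0.872 to 6.34) in the light fraction.

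Tuba1b, a broadly expressed alpha tubulin at 7:140614751-140617721, went in opposite directions in total RNA and in the light fraction. It measured 5.59 FPKM in CD and 11.0 FPKM in WD total RNA, 12.7 and 5.02 in the light fraction, and 6.84 and 4.77 in the heavy fraction. The ratio of WD to CD was 1.96 (0.833 to 5.03) in total RNA, 0.399 (0.167 to 0.918) in the light fraction and 0.702 (0.175 to 2.55) in the heavy fraction. Only the light-fraction interval lay clear of 1, and it rested on 14 fragments in CD and 12 in the deeper WD library. Tuba1a went the other way there, from 1 fragment in CD to 12 in WD, and the split of fragments between these genes is uncertain. With near-identical genes summed, 3 of 8 passed 1.5-fold in the light fraction, against 5 of 9 without summing. Among Tuba1a, Tuba1b and Tuba4a, only Tuba1b had a density below 1 in CD, at 0.541 (0.183 to 1.42), an interval that held 1. In WD the value for Tuba1b was 0.951 (0.262 to 2.90). Tuba1c, an alpha tubulin outside the genes described here, was also below 1 in CD, at 0.560 (0.009 to 10.3).

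Tuba1a, at 7:140637286-140640953, encodes an alpha tubulin best known from developing neurons. In total RNA it measured 1.85 FPKM in CD and 3.23 in WD, followed by 0.903 and 4.99 in the light fraction, and 4.85 and 3.79 in the heavy fraction. With 1 to 12 fragments per library, the differences could not be resolved at this depth. Its density of 4.94 in CD had an interval of 0.601 to 254, and the change in density of 0.155 an interval of 0.003 to 2.06. Tuba1a and Tuba1b are near-identical in their coding sequence, so the split of fragments between them is uncertain.

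Tubb4b, a widely expressed beta tubulin at 3:2441732-2444281, had the most fragments of the 4 tubulin mRNAs for which they were recovered. It measured 36.9 FPKM in CD and 19.0 FPKM in WD total RNA, from 61 and 30 fragments, 18.6 and 21.2 in the light fraction, and 95.0 and 70.5 in the heavy fraction. The heavy libraries were the highest in both diets. Its density was 5.09 (3.17 to 8.62) in CD and 3.32 (2.31 to 4.84) in WD. Both intervals lay above 1, and the change between diets, 0.652, had an interval of 0.343 to 1.21. In total RNA the ratio of WD to CD was 0.516 (0.321 to 0.809), below 1, in the light fraction 1.14 (0.674 to 1.99), and in the heavy fraction 0.742 (0.543 to 1.01). Tubb4b was the only one of the 5 mRNAs with fragment numbers whose total RNA interval excluded 1.

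Tubb5, at 20:3422460-3426371, had the opposite distribution to Tubb4b over the gradient. It measured 25.1 FPKM in CD and 17.7 FPKM in WD total RNA, 6.89 and 22.9 in the light fraction, and 4.40 and 7.17 in the heavy fraction. Both heavy libraries were lower than the light and the total RNA library of the same diet. Heavy over light was 0.645 in CD and 0.316 in WD, and heavy over total RNA was 0.178 and 0.409. The change between diets thus went down by the former measure, to 0.491 times, and up by the latter. Tubb5 gave no fragment numbers.

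Tubb2a, at 17:31493106-31498651, was the least abundant member on average. It measured 1.40 FPKM in CD and 5.12 FPKM in WD total RNA, 2.74 and 2.36 in the light fraction, and 4.40 and 2.15 in the heavy fraction. It was higher in WD in total RNA, by 3.48 times, and lower in the heavy fraction, at 0.499 times. No fragment numbers were recovered for Tubb2a, so no interval could be given.

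The summed beta tubulin mRNAs exceeded the summed alpha tubulin mRNAs in each library. In total RNA, alpha over beta was 0.361 in CD and 0.693 in WD, compared with 0.702 and 0.500 in the light fraction, and 0.367 and 0.390 in the heavy fraction. The heavy libraries of the diets were therefore closer to each other than the total RNA libraries were. Summing all 9 alpha and 8 beta tubulin loci found gave 0.416 and 0.732 in total RNA and 0.365 and 0.374 in the heavy fraction.

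The make-up of the beta sum depended on the fraction. Tubb4b made up 91.5% of it in the CD heavy and 88.3% in the WD heavy library, against 58.2% and 45.4% in total RNA. Tubb5 made up 4.24% and 8.99% of it in the heavy libraries, against 39.6% and 42.3% in total RNA. In the WD light library Tubb5 held 49.3% and Tubb4b 45.6%, the only library where Tubb5 was ahead. Of the alpha sum, Tuba4a made up 69.4% in CD and 72.5% in the WD heavy fraction, while Tuba1b led in the CD light library with 64.3%.

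**Figure D3:**
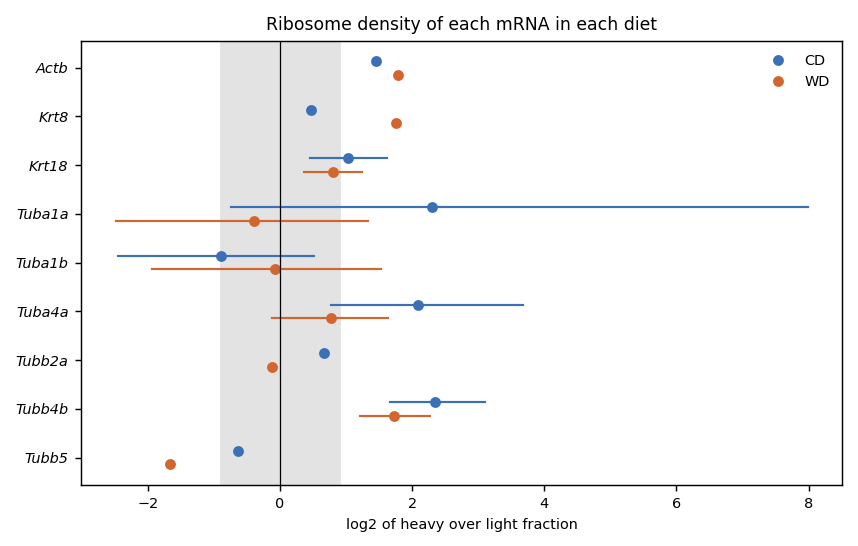
Ribosome density (log2 of heavy over light FPKM, horizontal axis) for each mRNA in the control diet (blue) and the Western diet (orange), 1 pair of libraries per point. Lines are 95% counting intervals where fragment numbers were recovered, and the grey band spans the lower to the upper quartile of all 10201 loci in the control diet; Krt18 and Tubb4b lay to the right of 0 with their intervals in both diets, and Tubb5 lay to the left of 0 in both.

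The densities of the cytoskeletal mRNAs were set against those of all loci. In CD, 6 of the 9 had a density of at least 1.5-fold above 1, where 32.9% of the 10201 loci did, and 2 were at least as far below, where 32.6% did. In WD these numbers were 5 of 9, beside 31.4% of all loci, and 1 of 9, beside 34.9%. The median log2 density of the 9 was 1.03 in CD and 0.77 in WD, while that of all loci was 0.012 and 0. These log2 values, as all below, were taken after adding 0.1 FPKM. Taken as heavy over total RNA, the median of the 9 was 0.77 in CD but 0.15 in WD. By this measure, 77.7% of all loci lay below the median of the 9 in CD and 55.9% in WD. The 9 genes were selected by symbol with earlier results of these data known, and they share libraries and in part sequence, so the counts describe them and were not tested. Of the hepatocyte marker mRNAs, 6 of 7 had a heavy over light ratio at least 1.5-fold above 1 in each diet. The median of their log2 ratios was 1.52 in CD and 1.85 in WD.

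Between diets the 9 mRNAs had no common direction in total RNA. At least 1.5-fold higher in WD were 3 of 9, Tuba1a, Tuba1b and Tubb2a, where 17.7% of all loci were. Tubb4b alone was at least 1.5-fold lower, where 17.0% of all loci were. These 3 were the mRNAs with the lowest means, the intervals of Tuba1a (0.339 to 11.2) and Tuba1b held 1, and Tubb2a had none. The median log2 change of the 9 was 0.17, and of all loci 0.02. Among the 6 mRNAs with a mean of 10 FPKM or more it was -0.097, and only Tubb4b passed 1.5-fold. Of the 4069 loci with such a mean, 8.77% were at least 1.5-fold higher and 10.2% lower. In bulk liver, fewer cells of a type and less mRNA per cell cannot be told apart.

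In the light fraction, 3 of 9 (Tuba1a, Tuba4a and Tubb5) were at least 1.5-fold higher in WD, where 25.9% of all loci were, and 2 of 9 (Krt8 and Tuba1b) were at least 1.5-fold lower, where 20.6% were. The share of all calls that were higher depended on the scaling. It was 55.8% as deposited and 33.3% after all libraries were set to a common FPKM sum, which took the median log2 change of all loci from 0.017 to -0.29 and gave 3 higher and 3 lower among the 9. The median of the 9 was 0.19 as deposited, -0.16 after this rescaling and 0.17 after centring on the median of all loci.

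In the heavy fraction the fewest of the 9 passed 1.5-fold. Tubb5 alone was at least 1.5-fold higher in WD, at 1.62 times and where 21.7% of all loci were, and Tubb2a alone at least 1.5-fold lower, where 20.6% were. Actb, Krt8 and Krt18, the mRNAs with the highest levels, had ratios of 1.03, 0.922 and 1.00. The median log2 change was -0.23 for the 9 and -0.015 for all loci.

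For the change in ribosome density, 2 of 9 were at least 1.5-fold higher in WD, Krt8 and Tuba1b, where 27.7% of all loci were. Tuba1a, Tuba4a, Tubb2a, Tubb4b and Tubb5, 5 of the 9, were at least 1.5-fold lower, where 30.9% of all loci were. For all 5 mRNAs with fragment numbers the interval of the change held 1. With heavy over total RNA in place of heavy over light, 4 of these 7 turned direction: the log2 change was -0.48 for Krt8, -1.48 for Tuba1b, 0.53 for Tubb4b and 1.2 for Tubb5. The median log2 change was -0.62 for the 9 and -0.021 for all loci, and after rescaling to a common sum it was -0.29 for the 9 and 0.28 for all loci, with 3 of the 9 higher and 3 lower. With rescaling, the calls over all loci went from 47.3% to 61.7% higher. The 4 comparisons share libraries, so their values for 1 gene are not independent of each other.

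**Figure D4:**
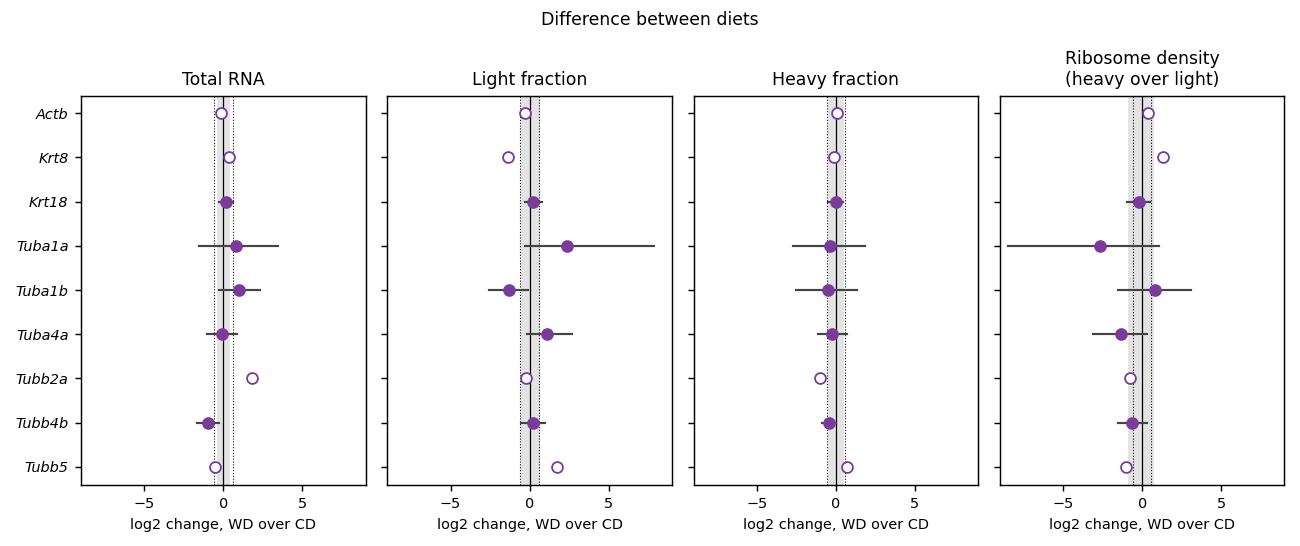
Log2 ratio of WD to CD for each mRNA in total RNA, the light fraction, the heavy fraction and the ribosome density (horizontal axes on a log2 scale). Filled points carry 95% counting intervals as lines, open points have none, dotted lines mark 1.5-fold and the grey band spans the lower to the upper quartile of all loci; the interval lay clear of 0 for Tubb4b in total RNA and for Tuba1b in the light fraction, and for no mRNA in the heavy fraction or the density. The split of fragments between Tuba1a and Tuba1b is uncertain, and the intervals do not cover it.

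A search restricted to loci averaging 10 FPKM or more gave those whose profile over the 6 libraries was most like that of a member, by the root mean square difference of log2 values after each profile was centred. For Actb these were Prpf8, a core splicing factor, at 0.037 on the log2 scale, Cyp39a1, an oxysterol hydroxylase, at 0.068 and Psma4, a proteasome subunit, at 0.072, from 3907 loci. For Krt8 they were Dars, the aspartyl-tRNA synthetase, at 0.16, Stk38 at 0.17 and Dera at 0.17. Dars shared the low WD light value of Krt8, with 29.2 FPKM in the CD and 14.6 in the WD light library. For Tuba1b they were Rnf8, a ubiquitin ligase, at 0.17, Npm3 at 0.21 and Slc19a2, a thiamine transporter, at 0.25, from 3908 loci. With 6 libraries and this many loci, near matches are a description only.

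Actin and tubulin are folded by the chaperonin CCT with its helper prefoldin. Of their 14 listed genes 12 were compared, and 7 had a density of at least 1.5-fold above 1 (32.9% of all loci) and 3 as far below (32.6%), with a median log2 of 0.93. The 3 below were the prefoldin genes Pfdn1, Pfdn6 and Vbp1, and Pfdn5 was the only prefoldin gene among the 7 above. Of these 3, only Pfdn1 had a CD density interval below 1 (0 to 0.206). Those of Pfdn6 (0.157 to 1.98) and Vbp1 (0.035 to 2.00) held 1. For CD, Pfdn6 rested on 9 light and 5 heavy fragments, Vbp1 on 6 and 2, and Pfdn1 on 21 and 0. All 7 CCT subunits found had a value above 1 in CD, from 1.33 (0.847 to 2.12) for Cct6a to 4.51 (1.98 to 12.4) for Cct7. Cct4, for one, measured 42.9 FPKM in the light and 93.6 in the heavy fraction of CD, and 26.8 and 82.2 in WD. Between diets in total RNA, 3 of the 12 were at least 1.5-fold higher and 4 lower, beside 17.7% and 17.0% of all loci, and in density 3 were higher and 2 lower, beside 27.7% and 30.9%. Pfdn5, a prefoldin subunit, had a density 1.76 times (1.09 to 2.83) as high in WD, while that of Cct7 was 0.288 times (0.095 to 0.765).

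The genes of tubulin folding and microtubules had 18 of 21 compared, with 9 above and 4 below by 1.5-fold in CD density, beside 32.9% and 32.6% of all loci. Tbca and Tbcc, cofactors that bind tubulin subunits as they fold, went opposite ways in CD, at 0.229 (0.103 to 0.458) and 13.0 (3.35 to 117). In total RNA 3 of the 18 were at least 1.5-fold higher in WD (17.7% of all loci) and 1 lower (17.0%), and in density 4 were higher (27.7%) and 4 lower (30.9%).

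The actin-binding and actomyosin genes, 37 of 42 compared, had 11 above and 12 below by 1.5-fold in CD density, where 32.9% and 32.6% of all loci were. Tmsb4x, the short mRNA of the actin-sequestering peptide thymosin beta 4, was the most abundant of them. It measured 1013 FPKM in the CD and 1597 in the WD light fraction but 206 and 239 in the heavy fraction, a density of 0.204 (0.152 to 0.270) in CD and 0.150 (0.116 to 0.191) in WD, opposite in direction to Actb. In total RNA 4 of the 37 were at least 1.5-fold higher in WD and 3 lower, against 17.7% and 17.0% of all loci, and in density 8 were higher and 11 lower, against 27.7% and 30.9%. Dstn, which severs actin filaments, had a ratio of WD to CD of 0.570 (0.371 to 0.861) in total RNA. Its density was 3.22 times (1.21 to 9.10) as high in WD. Among those with a mean of at least 10 FPKM, the density change was lowest for Pfn1, at 0.368 (0.064 to 2.36). It was highest for Tmsb10, which had 0 fragments in the CD heavy and 1 in the WD heavy library, and both intervals held 1.

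Of the other actins and tubulins, 4 of 18 genes were compared, and several of the rest were listed at 0 in each library, which does not show that they are absent. In total RNA 2 of these 4 (Tubg1 and Tubb6) were at least 1.5-fold higher in WD and none lower. In density 3 (Acta2, Tuba1c and Tubg1) were lower and none higher, and the interval of each held 1. These values rested on at most 10 fragments per library for Tubg1, Tuba1c and Tubb6, and on 0 or 1 for Acta2. Other intermediate filament and lamin genes, 8 of 16 compared, had 1 lower and none higher in total RNA, and 4 higher and 1 lower in density. Vim, the intermediate filament of mesenchymal cells, had a density change of 2.17 (0.804 to 5.96). The serum response factor and coactivator genes, 7 of 16 compared, had 2 higher and 1 lower in total RNA. In density 1 was higher and 5 lower, with a median log2 density change of -0.94. Of those 5, Egr1 and Cyr61 had 0 fragments in the WD heavy library, and 3 and 6 in the CD heavy library. The intervals of their density changes, 0 to 4.04 and 0 to 4.27, held 1. Elk4, a partner of serum response factor, had a density change of 0.521 (0.283 to 0.921), while that of Srf itself was 0.629 (0.132 to 2.92). Of the 15 reference genes, 1 was higher and 2 lower in total RNA, and 4 higher and 7 lower in density. The shares of all loci beside these 4 lists were 17.7% higher and 17.0% lower in total RNA, and 27.7% higher and 30.9% lower in density.

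The defining markers of hepatocytes were abundant. Alb, serum albumin, measured 24966 to 97448 FPKM, and the 7 hepatocyte markers found summed to 35776 to 124607. Biliary cells also express Krt8 and Krt18, and of their markers Krt7, Spp1, Cftr and Cldn4 were listed at 0 in each library. Since Myh9 and Tbcb, which most cells use, were listed at 0 throughout as well, these zeros cannot be read as low expression. The biliary markers summed to 0 to 4.35 FPKM, mostly from Epcam. Markers of stellate cells and myofibroblasts, 7 of 9 found, summed to 50.0 to 83.3 FPKM, with Acta2 at 0 to 2.30, and those of endothelial cells, 7 of 8 found, to 55.8 to 85.3. The 8 Kupffer cell and macrophage markers summed to 68.7 FPKM (CD) and 107 FPKM (WD) in total RNA. Their sums were 72.9 and 73.1 in the light fraction, and 129 and 175 in the heavy fraction. In total RNA 5 of the 8 were at least 1.5-fold higher in WD, beside 17.7% of all loci. Of those 5, the interval lay above 1 for Cd14 (1.08 to 4.58) and held 1 for Cd68 (0.881 to 7.75) and Marco (0.899 to 3.10). Cd163 and Csf1r had no interval. The ratios of Clec4f, Vsig4 and Adgre1 were 1.11, 1.04 and 1.19. The blood cell markers, 10 of 11 found, summed to 546 FPKM in the WD light library and to 30.1 to 107 in the others. The part of these cells in the tubulin and actin values was not tested.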

How the data were processed

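RNA of 6 libraries was sequenced after rRNA depletion and random priming. Per the study's methods and the labels, the authors used TopHat for alignment (genome Rnor_6.0) and obtained FPKM and its lower and upper bounds with Cufflinks and Cuffnorm; the deposited values are FPKM, not counts, and the annotation and the handling of shared reads are not given in the sources used here. The genes and lists described, and the rules for naming others, were chosen with earlier results of these data known. A change was log2 of (WD + 0.1) over (CD + 0.1), and a call at least 1.5-fold either way, over 10201 loci with a symbol, an accepted status and a mean of at least 1 FPKM. Since 1 read is worth a fixed step for a locus in a library, low values gave relative depths and whole fragment numbers (7349 of the 10201 loci, 72.0%), from which Clopper-Pearson and conditional odds ratio intervals at 95% were computed. These scripts were tested on simulated data. Named list genes were the 3 with the highest mean and those with extreme changes at a mean of at least 10 FPKM. Cct6a, Vbp1, Srf, Egr1, Cyr61, Sdha, Hprt1, Myh9 and Tbcb were named after their values were seen. Alternatives changed the filter, pseudocount, scaling, repeated symbols, near-identical genes, and the density's denominator. The scripts ran in Python 3.11.15. Tables were handled with pandas 2.3.3 and numpy 2.4.6, intervals came from scipy 1.17.1, and figures were drawn with matplotlib 3.10.9.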

Additional observations from a re-analysis of the deposited data

Results flagged for a closer look

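For 2 tubulin mRNAs the ratio of WD to CD was at least 1.5-fold one way in total RNA and at least 1.5-fold the other way in a fraction. For Tuba1b, the log2 ratio of WD to CD in the light fraction minus that in total RNA was -2.30, with 9 and 17 fragments in CD and WD total RNA and 14 and 12 in the light fraction. Tuba1a, whose split of fragments with Tuba1b is uncertain, had 1 and 12 fragments in the CD and WD light libraries. For Tubb2a, the ratio in the heavy fraction minus that in total RNA was -2.80 on the log2 scale. With 1 library per group neither difference was tested.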

How the results depend on the processing

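No paired analysis was possible because each group was 1 library, and for the same reason no library could be left out of a group. Of 507 values of single genes recomputed under the alternatives, 471 stayed within their counting interval or, where there was none, within 0.1 on the log2 scale, 30 moved further, and 6 that had passed 1.5-fold changed sign. With a mean of at least 10 FPKM, which leaves out the 3 lowest mRNAs, the medians over the members were -0.097 (total RNA), -0.057 (heavy), -0.42 (density change), 1.24 (CD density) and 1.27 (WD density). Of these 6 mRNAs, the calls either way were 1 (total RNA), 3 (light), 1 (heavy), 4 (density change) and 5 (CD density). Of the 4069 loci with such a mean, 8.77% were higher and 10.2% lower in total RNA, and 17.1% and 19.8% in the light fraction. These shares were 13.3% and 12.9% in the heavy fraction, 23.3% and 21.4% for the density change, and 34.9% and 27.9% for the CD density. Rescaling to the same sum gave medians of -0.16 (light), -0.29 (density change) and 1.08 (WD density). Summing near-identical genes gave medians of 0.046 (total RNA), -0.011 (light), -0.42 (density change) and 0.85 (CD density), with calls for 3 of 8 in the light fraction. Heavy over total RNA in place of heavy over light gave medians of -0.16 (density change), 0.77 (CD density) and 0.15 (WD density), and 4 calls of a density change. Under it the density change was -0.48 for Krt8, -1.48 for Tuba1b, 0.53 for Tubb4b and 1.2 for Tubb5, the CD density of Tuba1b was 0.28 and the WD density of Krt8 -0.086, all opposite in sign to heavy over light. The causes were not tested. The following alternatives were chosen after seeing the data. With the merged Actg1 locus the medians were 0.046 (total RNA), -0.42 (density change), 0.85 (CD density) and 0.46 (WD density). With the 5 mRNAs that have fragment numbers the medians were -0.35 (heavy) and 2.09 (CD density), and the calls 3 (light), 0 (heavy), 4 (density change), 5 (CD density) and 3 (WD density). Alpha over beta tubulin in CD total RNA was 0.416 over all loci. At 1 to 17 fragments per library, depth limits Tuba1a and Tuba1b.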
